A study of Mus musculus with 8 samples.

Results

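The nuclear genes for copying and reading the mitochondrial genome were followed in mouse heart ventricle after a Cre meant to delete both Med13 and Med13l. The group holds 10 genes, taken by symbol from the 24341 genes of the deposited table: Tfam, Tfb1m, Tfb2m, Polrmt, Polg, Polg2, Ssbp1, Nrf1, Gabpa and Gabpb1. The list goes by function and uses no measured value, but it was chosen with earlier results of these data known. The libraries are 4 from cre_positive mice and 4 from cre_negative mice, each a ventricular lysate from a male of 12 weeks. Mice of both groups carried floxed alleles of Med13 and Med13l (labelled Med13/13L fl/fl), received tamoxifen chow and were sampled 4 weeks after tamoxifen. The cre_positive mice also carried a Cre recombinase that the series title places in cardiomyocytes; the driver of the Cre is not named in the labels. No group with Cre and without floxed alleles was analysed here, so effects of the Cre and of the deletion cannot be told apart. Numbers after a group's name are those its sample titles give.

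Mitochondria keep a small circular genome that encodes core subunits of the respiratory chain, and every protein that copies or transcribes it comes from a nuclear gene. The RNA polymerase POLRMT starts transcription with TFAM, which bends promoter DNA and also packs the genome into nucleoids, and with TFB2M, which melts the promoter. Replication is carried out by the polymerase POLG with its accessory subunit POLG2, the helicase Twinkle and the single-stranded DNA binding protein SSBP1. In the nucleus, the nuclear respiratory factor NRF1 and GABP, which is built from a DNA-binding alpha subunit and a beta subunit with the activation domain, bind promoters of many of these genes. Nrf1 here is nuclear respiratory factor 1, not the stress factor gene Nfe2l1. The heart depends on this system because its contraction draws mainly on mitochondrial ATP.

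The unit is FPKM, a fragment count divided by transcript length in kilobases and by library size in units of 1e+06 fragments. Estimated library sizes ran from 4.47 to 22.4 in those units, and each library had 11540 to 11635 genes at 1 FPKM or more. The ribosomal precursor Rn45s parts the libraries into 5 with 396 to 1053 FPKM (cre_positive 1 and 2, cre_negative 1, 3 and 4) and 3 with 10.3 to 15.98 FPKM (cre_positive 3 and 4, cre_negative 2), and the 3 are also those with the highest estimated size. Of the targeted genes, Med13 averaged 8.13 ± 0.554 FPKM in cre_positive and 12.0 ± 2.23 FPKM in cre_negative libraries (limma adjusted p = 0.00612), and Med13l 2.52 ± 0.113 FPKM in cre_positive and 4.92 ± 0.814 FPKM in cre_negative libraries (limma adjusted p = 3.18e-04; SD, n = 4 each). Med13 was not called within either Rn45s set alone (adjusted p = 0.0529 and 0.0532). Changes below are differences of mean log2(FPKM + 1), cre_positive minus cre_negative, a scale that understates the change of low genes. A gene was called at a limma adjusted p under 0.05 among the 11688 genes whose mean reached 1 FPKM.

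All 10 genes passed the filter on low values. The genes for initiating mitochondrial transcription and the paralog Tfb1m fell in cre_positive ventricles, as did the single-stranded DNA binding protein and the accessory subunit of the DNA polymerase, while the catalytic DNA polymerase and the nuclear regulators were not called. In numbers, 6 of 10 genes were called lower and 0 higher, against a background of 19.4% of all tested genes called lower, 19.7% called higher and 39.2% called in either direction. The median log2 change of the 10 was -0.44, against -0.01 for all tested genes. For the same 6 genes no cre_positive library reached the level of any cre_negative library, which held in this direction for 18.7% of all tested genes, in the other for 19.3% and in either for 38.0%. Ventricle lysates hold many cell types, so fewer cells of a type and less RNA per cell cannot be told apart.

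**Figure D1:**
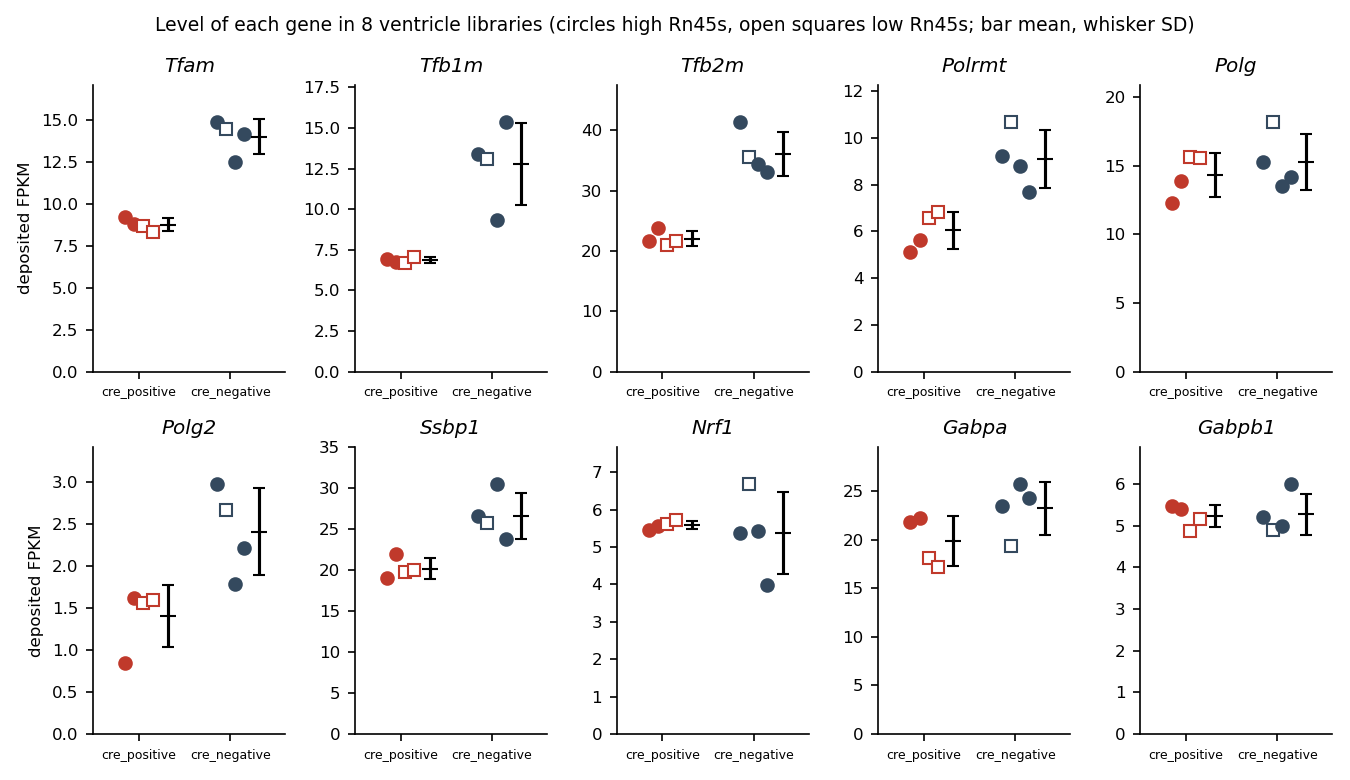
Deposited FPKM of the 10 genes in each library, cre_positive in red and cre_negative in dark blue, with the mean and SD beside the points; open squares are the libraries with low Rn45s. Points of the groups are fully apart for Tfam, Tfb1m, Tfb2m, Polrmt, Polg2 and Ssbp1 and overlap for Polg, Nrf1, Gabpa and Gabpb1.

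Tfam encodes the high-mobility-group protein that activates mitochondrial promoters and coats the genome (chromosome 10, 71225468 to 71238328, minus strand, GRCm38). It stood at 9.23, 8.77, 8.68 and 8.31 FPKM in cre_positive libraries 1 to 4, against 14.9, 14.4, 12.5 and 14.1 FPKM in cre_negative libraries 1 to 4. The cre_positive values lay within a narrow band below the lowest control, cre_negative 3. Mean Tfam was 8.75 ± 0.378 FPKM in cre_positive and 13.98 ± 1.05 FPKM in cre_negative libraries (SD, n = 4 each), and the cre_positive mean was 62.6% of the control mean. The log2 change of Tfam was -0.62 (SE 0.08, limma adjusted p = 1.54e-04). For Tfam and each other gene whose groups did not overlap, an exact two-sided permutation test gave p = 0.0286, the smallest that 70 assignments of 8 libraries allow.

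Tfb2m encodes the factor that opens the promoter for POLRMT (chromosome 1, 179528052 to 179546305, minus strand). It was the most abundant of the 10 genes by mean FPKM in both groups, at 21.6, 23.8, 21.01 and 21.7 FPKM in cre_positive and 41.4, 35.6, 34.4 and 33.1 FPKM in cre_negative libraries 1 to 4. The gap between the highest cre_positive and the lowest cre_negative library was wider than the range of the cre_positive group. Tfb2m averaged 22.0 ± 1.24 FPKM in cre_positive and 36.1 ± 3.66 FPKM in cre_negative libraries (SD, n = 4 each). Its log2 change was -0.68 (SE 0.09, limma adjusted p = 1.37e-04).

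Its paralog Tfb1m encodes a methyltransferase that modifies the small ribosomal RNA of mitochondria (chromosome 17, 3519250 to 3557796, minus strand). Levels were 6.95, 6.78, 6.69 and 7.06 FPKM in cre_positive and 13.4, 13.1, 9.34 and 15.4 FPKM in cre_negative libraries 1 to 4. The controls spread widely, with cre_negative 3 lowest, whereas the cre_positive libraries were nearly alike. Tfb1m showed the largest change of the 10 genes, to 53.7% of the control mean, or -0.79 on the log2 scale (SE 0.13, limma adjusted p = 6.84e-04). The deposited locus of the Tfb1m row runs over 231141 bases and takes in Tiam2, which lies on the other strand and shares 142 exonic bases with it. Tiam2 had 1.96 ± 0.271 FPKM in cre_positive and 1.42 ± 0.265 FPKM in cre_negative libraries (SD, n = 4 each) and was not called.

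Polrmt encodes the RNA polymerase of mitochondria, which also lays down primers for replication (chromosome 10, 79736125 to 79746604, minus strand). It stood at 5.12, 5.64, 6.58 and 6.83 FPKM in cre_positive and 9.21, 10.7, 8.81 and 7.70 FPKM in cre_negative libraries 1 to 4. In each group the libraries with low Rn45s were the highest, and the groups did not overlap. Mean Polrmt was 6.04 ± 0.801 FPKM in cre_positive and 9.10 ± 1.23 FPKM in cre_negative libraries (SD, n = 4 each), and the log2 change was -0.52 (SE 0.11, limma adjusted p = 0.00479). The deposited locus of its row spans 672333 bases with 45 other protein-coding genes of GENCODE M21, so its value rests on how the authors' quantification divided reads in that locus.

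Promoters of these 4 genes are shown because all 4 fell; they hold the initiation machinery and Tfb1m, the paralog of its melting factor. Each window runs from 250 bases before to 50 bases after the RefSeq start (GRCm38.p6), is written 5′ to 3′ on the strand of the gene, and carries in capitals each match to 2 short motifs on either strand. The motifs are GCGCANGC, a core of the NRF1 site, and CGGAAG, a core shared by GABP and other ETS factors. In these 4 windows no match to one motif overlaps a match to the other, and 2 matches to the NRF1 core in Polrmt overlap each other.
Tfam, chr10:71237995-71238294, minus strand: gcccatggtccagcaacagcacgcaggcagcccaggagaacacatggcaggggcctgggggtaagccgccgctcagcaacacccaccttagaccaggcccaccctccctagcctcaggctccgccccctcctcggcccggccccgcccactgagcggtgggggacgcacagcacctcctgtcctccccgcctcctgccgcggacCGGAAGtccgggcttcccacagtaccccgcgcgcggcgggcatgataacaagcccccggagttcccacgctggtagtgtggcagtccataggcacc
Tfb1m, chr17:3557706-3558005, minus strand: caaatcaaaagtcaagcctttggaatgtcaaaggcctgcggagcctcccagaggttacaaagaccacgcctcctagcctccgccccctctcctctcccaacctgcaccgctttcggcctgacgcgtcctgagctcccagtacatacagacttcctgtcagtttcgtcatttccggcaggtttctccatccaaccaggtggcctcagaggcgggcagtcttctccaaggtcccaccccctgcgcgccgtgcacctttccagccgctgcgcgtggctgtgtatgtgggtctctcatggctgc
Tfb2m, chr1:179546227-179546526, minus strand: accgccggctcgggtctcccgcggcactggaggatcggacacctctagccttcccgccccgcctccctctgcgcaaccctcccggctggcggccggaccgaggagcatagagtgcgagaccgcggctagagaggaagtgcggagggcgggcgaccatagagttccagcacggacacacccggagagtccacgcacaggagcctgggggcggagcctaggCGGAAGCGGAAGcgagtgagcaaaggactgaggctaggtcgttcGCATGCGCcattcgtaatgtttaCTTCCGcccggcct
Polrmt, chr10:79746532-79746831, minus strand: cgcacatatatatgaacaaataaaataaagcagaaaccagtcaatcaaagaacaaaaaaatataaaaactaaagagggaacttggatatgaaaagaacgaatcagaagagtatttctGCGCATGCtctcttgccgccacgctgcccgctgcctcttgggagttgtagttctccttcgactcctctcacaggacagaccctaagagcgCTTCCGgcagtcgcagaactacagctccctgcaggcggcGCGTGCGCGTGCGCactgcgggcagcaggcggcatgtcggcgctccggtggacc

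The ETS core was found once in the Tfam window, 46 to 41 bases before the start, 3 times in Tfb2m and once in Polrmt. The NRF1 core was found once in Tfb2m and 3 times in Polrmt, and neither motif in Tfb1m. Among the RefSeq windows of all 10 genes, 7 of 12 held the ETS core and 3 of 12 the NRF1 core, against 16.9% and 9.95% of the 32851 windows of all genes. The ETS core stands in the windows of Tfam, Tfb2m, Polrmt, Polg2 and Ssbp1, which were called, and of Polg and Gabpa, which were not. It was not found for the called gene Tfb1m or the uncalled genes Nrf1 and Gabpb1. A link between motif matches and calls was not tested. A match is a run of letters and not a bound site.

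Of the replication genes, Ssbp1 and Polg2 fell and Polg was not called. Ssbp1, which coats single-stranded mitochondrial DNA at the fork (chromosome 6, 40471414 to 40481823, plus strand), had 19.0, 22.0, 19.8 and 19.97 FPKM in cre_positive and 26.6, 25.7, 30.5 and 23.8 FPKM in cre_negative libraries 1 to 4. The groups were apart by a small margin, between cre_positive 2 and cre_negative 4. The Ssbp1 change was the smallest among the called genes, to 75.7% of the control mean, or -0.38 on the log2 scale (SE 0.09, limma adjusted p = 0.00643).

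Polg encodes the catalytic subunit of the mitochondrial DNA polymerase (chromosome 7, 79446231 to 79467911, minus strand). It had 12.3, 13.9, 15.6 and 15.6 FPKM in cre_positive and 15.3, 18.2, 13.5 and 14.2 FPKM in cre_negative libraries 1 to 4, and the groups overlapped. In each group the libraries with low Rn45s were again the highest. The log2 change of Polg was -0.08 (95% confidence interval -0.33 to 0.16, limma adjusted p = 0.585). Fanci, which overlaps it on the other strand by 921 exonic bases, had at most 0.244 FPKM in any library.

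Polg2, the subunit that holds the polymerase on DNA (chromosome 11, 106768204 to 106779537, minus strand), was the least abundant of the 10. Its levels were 0.847, 1.61, 1.56 and 1.59 FPKM in cre_positive and 2.97, 2.66, 1.78 and 2.21 FPKM in cre_negative libraries 1 to 4. The groups did not overlap, though cre_negative 3 lay close to cre_positive 2. Polg2 changed by -0.51 on the log2 scale (SE 0.15, limma adjusted p = 0.0240). The Polg2 call was lost without cre_negative 1 (log2 change -0.43, adjusted p = 0.0712) and without cre_negative 2 (-0.47, adjusted p = 0.0542). Taking its longest GENCODE transcript of 2728 bases, the lowest Polg2 value rests on an estimated 10.3 fragments, so its counting error is large. The deposited locus of the Polg2 row runs over 28312 bases and takes in Milr1, on the other strand, which shares 132 exonic bases with it. Milr1 had 0.527 ± 0.192 FPKM in cre_positive and 0.562 ± 0.0682 FPKM in cre_negative libraries (SD, n = 4 each), below the filter.

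The 3 nuclear regulators were not called. Nrf1, the gene of the DNA-binding activator (chromosome 6, 30047985 to 30153458, plus strand), had 5.46, 5.55, 5.60 and 5.72 FPKM in cre_positive and 5.36, 6.68, 5.44 and 3.99 FPKM in cre_negative libraries 1 to 4. The cre_positive libraries sat inside the range of the controls. Its log2 change was 0.06 (95% confidence interval -0.20 to 0.33, limma adjusted p = 0.709). Between Rn45s sets the sign differed, at 0.14 in the libraries with high Rn45s and -0.20 in those with low Rn45s.

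Gabpb1, a beta subunit of GABP (chromosome 2, 126628907 to 126684435, minus strand), had 5.46, 5.40, 4.87 and 5.16 FPKM in cre_positive and 5.203, 4.90, 4.98 and 5.99 FPKM in cre_negative libraries 1 to 4. The groups overlapped. Its log2 change was -0.01 (95% confidence interval -0.20 to 0.18, limma adjusted p = 0.951).

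Gabpa, the DNA-binding subunit (chromosome 16, 84834891 to 84863783, plus strand), had 21.8, 22.2, 18.1 and 17.2 FPKM in cre_positive and 23.5, 19.4, 25.7 and 24.3 FPKM in cre_negative libraries 1 to 4. In each group the libraries with low Rn45s were the lowest. The log2 change of Gabpa was -0.22 (95% confidence interval -0.47 to 0.03, limma adjusted p = 0.153). Without cre_negative 2 it was called lower (log2 change -0.30, adjusted p = 0.0451). Gabpa shares 397 exonic bases with Atp5j, an ATP synthase subunit gene on the other strand, which fell to 516 ± 23.97 FPKM in cre_positive libraries, against 788 ± 44.7 FPKM in cre_negative libraries (SD, n = 4 each; limma adjusted p = 1.27e-04). The labels do not say whether counting used strand, so reads of the shared bases cannot be told apart.

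**Figure D2:**
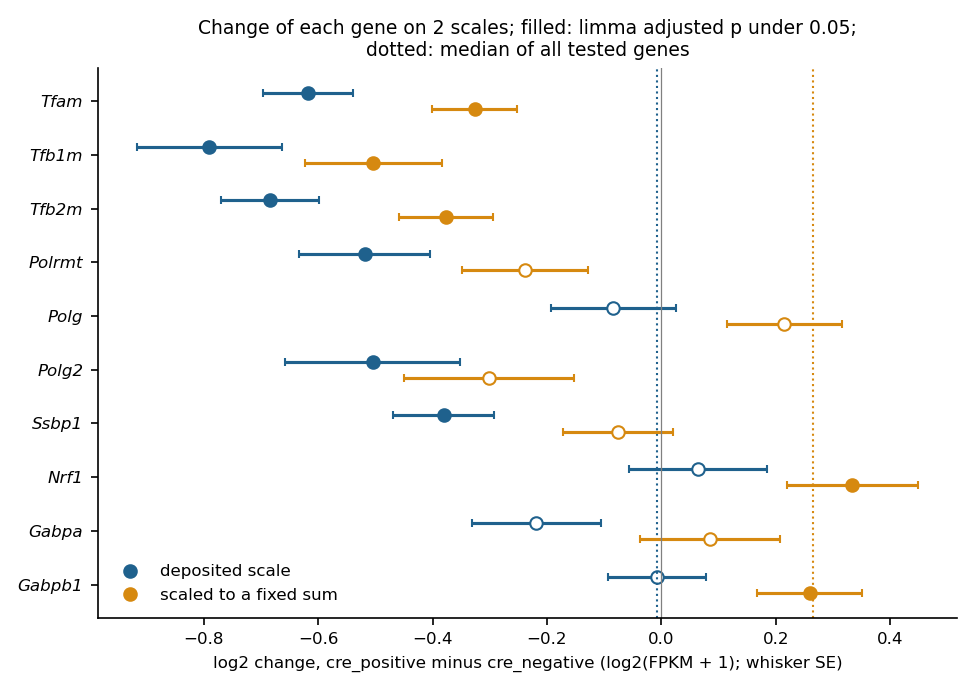
Log2 change of each of the 10 genes with its SE, on the deposited scale (blue) and after scaling every library to a fixed sum (orange); filled points have a limma adjusted p under 0.05 and dotted lines mark the median of all tested genes. Blue points of the 6 called genes lie between -0.79 and -0.38, and fixed-sum scaling moves the whole picture to the right, with the median of all genes at 0.26.

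The size of these changes depends on the scale. When each library was scaled to the same summed FPKM (small RNA and ribosomal protein genes left out of the sum), the median log2 change of all genes moved to 0.26. On that scale Tfam (-0.33), Tfb1m (-0.50) and Tfb2m (-0.38) were still called lower, Polrmt (-0.24, adjusted p = 0.0889), Polg2 (-0.30, adjusted p = 0.108) and Ssbp1 (-0.08, adjusted p = 0.523) were not, and Nrf1 (0.33, adjusted p = 0.0301) and Gabpb1 (0.26, adjusted p = 0.0341) were called higher. Polg (0.21, adjusted p = 0.0919) and Gabpa (0.08, adjusted p = 0.580) changed sign there without being called. The targeted gene Med13 (-0.21, adjusted p = 0.185) was not called there either. The background there was 8.64% of genes called lower and 46.8% called higher. Fixed-sum scaling multiplies each library by a single factor. Values relative to the median of all genes therefore stay alike by construction, apart from the effect of the added 1. Tfam lay at -0.61 on the deposited and -0.59 on the fixed-sum scale, Tfb1m at -0.78 and -0.77, and Ssbp1 at -0.37 and -0.34. Nrf1 lay at 0.07 on both, and Polg2 at -0.50 and -0.57.

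Taken within each Rn45s set (the 5 high libraries, then the 3 low ones), log2 changes were -0.57 and -0.70 for Tfam, -0.77 and -0.84 for Tfb1m, -0.65 and -0.71 for Tfb2m, and -0.58 and -0.60 for Polrmt. They were -0.58 and -0.51 for Polg2, -0.38 and -0.36 for Ssbp1, -0.12 and -0.21 for Polg, -0.15 and -0.13 for Gabpa, and 0.01 and 0.03 for Gabpb1. The set with low Rn45s holds 1 control library. In the set with high Rn45s alone, Polg2 (adjusted p = 0.0946) and Ssbp1 (adjusted p = 0.0748) were not called, which left 4 of the 10 genes lower against 13.1% of all tested genes.

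Levels per length can be set in order. In cre_positive ventricles the order by mean FPKM ran Tfb2m, Ssbp1, Gabpa, Polg, Tfam, Tfb1m, Polrmt, Nrf1, Gabpb1 and Polg2, and the order was the same in cre_negative ventricles. Libraries overlapped in cre_positive between Tfb2m and Ssbp1, Ssbp1 and Gabpa, Tfb1m and Polrmt, Polrmt and Nrf1, and Nrf1 and Gabpb1. In cre_negative they overlapped between Ssbp1 and Gabpa, Polg and Tfam, Tfam and Tfb1m, Tfb1m and Polrmt, and Nrf1 and Gabpb1. Polrmt was thus clear of Nrf1 in controls but not in cre_positive libraries.

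Differences between genes of the same library do not move with the scaling of the library, apart from the effect of the added 1, and 4 pairs were compared. Polg minus Polg2 was 2.84, 2.51, 2.70 and 2.68 on the log2 scale in cre_positive and 2.03, 2.39, 2.39 and 2.24 in cre_negative libraries 1 to 4. The groups did not overlap and the difference between them was 0.42, with an exact two-sided permutation p of 0.0286 and an adjusted p of 0.114 over the 4 pairs. With 70 assignments, a pair can pass that adjustment only if other pairs reach the smallest p as well. Within the sets with high and low Rn45s the Polg minus Polg2 difference was 0.46 and 0.30, and with 0.1 in place of the added 1 it was 0.67 over all libraries. The other pairs showed overlapping groups: Tfam minus Polrmt differed by -0.10 (exact permutation adjusted p = 0.6), Tfb1m minus Tfb2m by -0.11 (exact permutation adjusted p = 0.6) and Gabpa minus Gabpb1 by -0.21 (exact permutation adjusted p = 0.286).

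**Figure D3:**
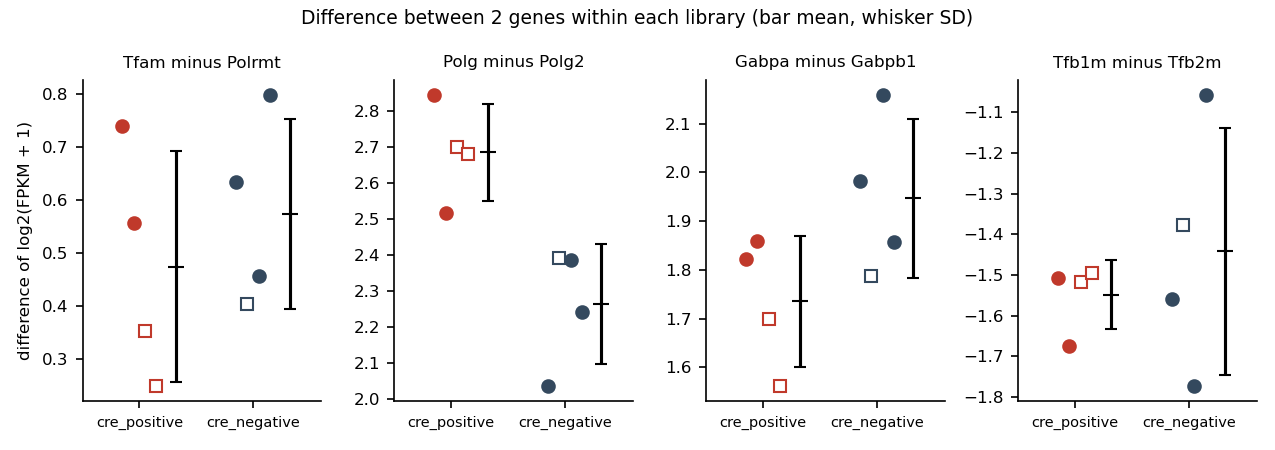
Difference of log2(FPKM + 1) between 2 genes within each library for the 4 pairs, cre_positive in red and cre_negative in dark blue, with mean and SD; open squares are libraries with low Rn45s. The vertical axes do not start at 0; Polg minus Polg2 averages 2.68 in cre_positive and 2.26 in cre_negative libraries, and the other 3 pairs overlap.

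Genes with profiles most like Tfam, by the mean absolute difference of centred log2(FPKM + 1) over the 8 libraries, were Hsd17b4, Atp5h and Mrpl41, each at 0.04. These, and those for Polrmt below, were picked as the closest of all tested genes outside the 10. Some of so many genes lie close by number alone, so their distances cannot be weighed against those within the 10. Tfb2m lay at 0.09 and Tfb1m at 0.13 from Tfam by the same measure, and Nrf1 was the farthest of the 10 at 0.34. Hsd17b4 encodes a peroxisomal enzyme of fatty acid oxidation, Atp5h a subunit of ATP synthase and Mrpl41 a protein of the large mitochondrial ribosomal subunit. Closest to Polrmt were Aldh4a1, Anks1 and Pigo, at 0.04 each, and the nearest of the 10 genes was Polg2 at 0.14. Aldh4a1 encodes a mitochondrial enzyme of proline breakdown.

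Beyond the 10, 105 tested genes in 6 related lists were read beside them, and 58 were called lower and 3 higher. Not all of these genes serve mitochondrial DNA upkeep or expression. The lists include upstream regulators of the nuclear respiratory factors (5 of 18 lower) and genes described as NRF1 or GABP targets (12 of 18 lower). The lists and their counts are descriptions, against the 19.4% of all tested genes called lower and 19.7% called higher. For the counts after fixed-sum scaling, the shares of all tested genes were 8.64% lower and 46.8% higher. Among 12 tested replication and repair factors 6 fell and 0 rose, at a median log2 change of -0.28; after fixed-sum scaling 4 were lower and 3 higher, with a median of -0.05. Peo1, the table's symbol for the Twinkle helicase, fell to 6.04 ± 0.849 FPKM in cre_positive libraries, against 12.8 ± 0.976 FPKM in cre_negative libraries (SD, n = 4 each), or -0.97 on the log2 scale (limma adjusted p = 4.43e-05). Ung, the uracil DNA glycosylase of nucleus and mitochondria, fell by 1.67 on the log2 scale, Endog, a mitochondrial nuclease, fell by 1.05, and Mgme1, an exonuclease that trims mitochondrial DNA ends, fell by 0.72. Lig3, the DNA ligase of mitochondria, had a log2 change of 0.03 and was not called; it was named after its value was seen.

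Of 12 tested nucleotide supply and mtDNA depletion genes 5 were called lower and 1 higher, with a median of -0.25; after fixed-sum scaling 4 were lower and 3 higher, with a median of 0.01. Sucla2 and Suclg1, subunits of succinyl-CoA ligase whose loss depletes mitochondrial DNA in humans, fell by 1.04 and 0.85 on the log2 scale. Nme4, a mitochondrial nucleoside diphosphate kinase, fell by 1.59 and Dguok, the deoxyguanosine kinase, fell by 0.65. Tk2, the mitochondrial thymidine kinase, was the list's higher call, at 6.32 ± 0.180 FPKM in cre_positive libraries, against 5.205 ± 0.483 FPKM in cre_negative libraries (SD, n = 4 each; limma adjusted p = 0.0421). That call was lost under 11 of 18 alternatives, among them leaving out any 1 library other than cre_negative 3, with adjusted p up to 0.211. Tk2 was named after its value was seen.

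Of 14 tested transcription elongation, termination and nucleoid factors 12 were called lower and 0 higher, with a median of -0.51; after fixed-sum scaling 6 were lower and 1 higher, with a median of -0.23. Mterf2, a mitochondrial termination factor family member, fell to 10.2 ± 1.29 FPKM in cre_positive libraries, against 20.7 ± 2.65 FPKM in cre_negative libraries (SD, n = 4 each), or -0.95 on the log2 scale (limma adjusted p = 7.62e-05). Tefm, the elongation factor of POLRMT, fell by 0.74 on the log2 scale. Hspd1, the mitochondrial chaperonin, and Phb2, a prohibitin of the inner membrane, fell by 0.98 and 0.83. Lonp1, the protease that degrades free TFAM, was at 79.8 ± 3.13 FPKM in cre_positive and 69.9 ± 3.90 FPKM in cre_negative libraries (SD, n = 4 each) and was not called (limma adjusted p = 0.0571); it too was named after its value was seen.

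RNA processing and stability genes fell in 18 of 31 cases and rose in 1, with a median of -0.42, and in 12 and 3 cases after fixed-sum scaling, with a median of -0.17. Lrpprc, which stabilises mitochondrial messenger RNA, fell to 41.0 ± 3.68 FPKM in cre_positive libraries, against 88.0 ± 1.88 FPKM in cre_negative libraries (SD, n = 4 each; log2 change -1.09, limma adjusted p = 4.42e-06). Its partner Slirp had a log2 change of -0.24 and was not called (limma adjusted p = 0.179). Ptcd3, a ribosome-associated pentatricopeptide protein, fell by 1.17, Supv3l1, a helicase of the mitochondrial RNA degradosome, fell by 0.99 and Ptcd2 fell by 0.89. Rexo2, an oligoribonuclease that clears short RNA fragments, was the member that rose, to 77.9 ± 4.08 FPKM in cre_positive libraries, against 50.3 ± 1.30 FPKM in cre_negative libraries (SD, n = 4 each; limma adjusted p = 5.23e-05). Slirp and Rexo2 were named after their values were seen.

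Upstream regulators of the nuclear respiratory factors were called lower in 5 of 18 cases and higher in 1, with a median of -0.09. Leaving out any 1 library gave 3 to 4 lower, with 3 when cre_positive 1, 2 or 3 was left out. That share lay close to the one over all tested genes, 1862 to 2317 of 11688 lower in the same fits. The median then ran from -0.17 without cre_negative 2 to -0.05 without cre_negative 3. Ppargc1b and Ppargc1a, coactivators that work with NRF1, fell by 1.73 and 0.76 on the log2 scale, Ppara, a fatty acid receptor, fell by 1.11 and Esrra, the estrogen-related receptor alpha, fell by 0.44. The groups overlapped for Esrra, and its call was lost under 9 of 18 alternatives, among them leaving out any 1 of cre_positive 1, 2 and 3 and cre_negative 1 and 2, with adjusted p up to 0.417. Nfe2l2, an activator of antioxidant genes, rose by 0.38, and was named after its value was seen. Genes described as NRF1 or GABP targets, mostly of the respiratory chain, fell in 12 of 18 cases and rose in 0, with a median of -0.51. Their list also holds Tomm genes of protein import and the assembly genes Cox17 and Surf1, so its count is not one of respiratory chain subunits. Quantile normalization gave 8 lower, 1 higher and a median of -0.20 for the list, and fixed-sum scaling 6 lower, 1 higher and a median of -0.19. Cycs, the gene of cytochrome c, fell to 268 ± 25.7 FPKM in cre_positive libraries, against 473 ± 23.2 FPKM in cre_negative libraries (SD, n = 4 each; limma adjusted p = 3.67e-05). Sdhb, Ndufs8 and Cox5b fell by 0.96, 0.71 and 0.66. The 15 listed genes of the mitochondrial genome itself were not analysed here, so nothing is shown of the transcripts this machinery makes.

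**Figure D4:**
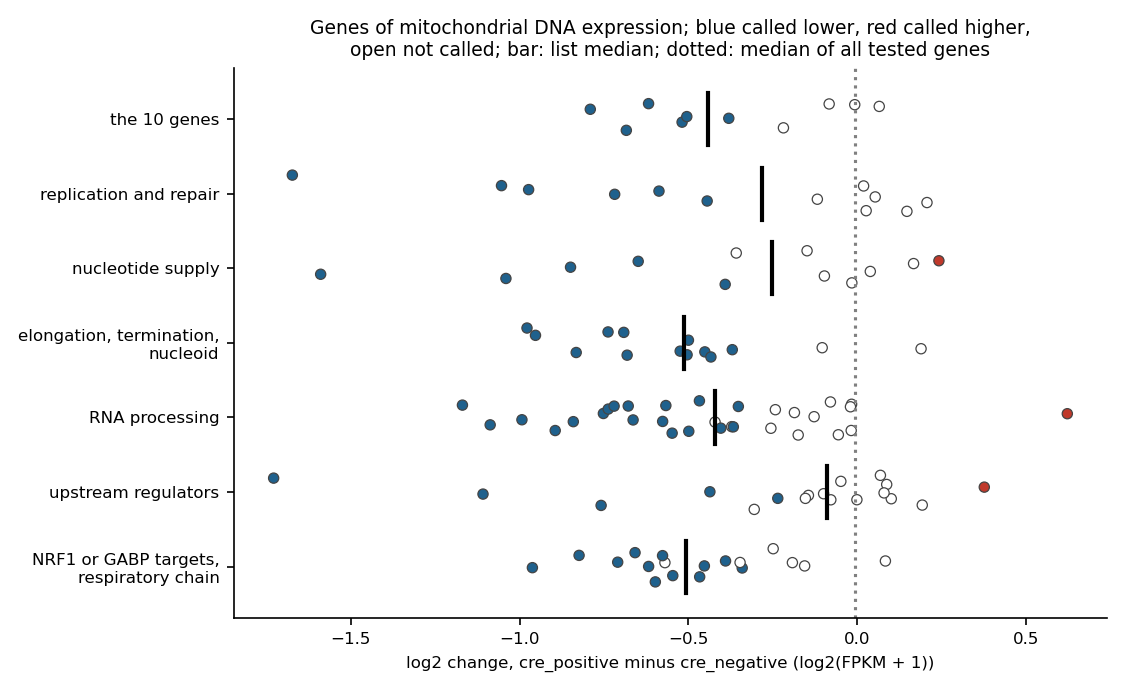
Log2 change of every tested gene in the 10-gene group and in the 6 lists; blue points were called lower, red points higher and open points not called, and black bars are list medians. Medians run from -0.51 for the elongation, termination and nucleoid list to -0.09 for the upstream regulators, and the dotted line marks the median of all tested genes at -0.01.

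Across the 6 lists, 49 of 105 tested genes were called lower and 2 higher in the high Rn45s set alone, where 13.1% of all tested genes were lower and 13.4% higher. The low Rn45s set holds 1 control library, so only medians are given for it. They ran from -0.66 for the list of NRF1 or GABP targets to 0.03 for the upstream regulators. After scaling to a fixed sum 35 were called lower and 17 higher, where 8.64% of all tested genes were lower and 46.8% higher. On that scale the median of the upstream regulators became 0.20, against 0.26 for all tested genes, with 3 lower and 6 higher.

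Markers of cell types moved beside these changes, and their part in the results was not tested. Over all tested genes 19.4% were called lower and 19.7% higher. Marker calls and sums are on the deposited scale. Fixed-sum scaling would multiply cre_positive libraries by 1.10 to 1.14 and cre_negative libraries by 0.862 to 0.9435. Small falls, such as that of the endothelial sums, may therefore not hold on the fixed-sum scale. Of 8 cardiomyocyte markers 6 fell and 0 rose, and their summed level was 17504 to 18578 FPKM in cre_positive and 45687 to 50179 FPKM in cre_negative libraries, with Actn2 and Mybpc3 not called. Fibroblast markers rose in 4 of 8 cases and fell in 1, with sums of 696 to 778 FPKM in cre_positive and 552 to 639 FPKM in cre_negative libraries. Endothelial markers fell in 3 of 8 cases, with sums of 327 to 382 FPKM in cre_positive and 407 to 459 FPKM in cre_negative libraries. Macrophage markers fell in 5 of 7 tested cases, with sums of 166 to 239 FPKM in cre_positive and 268 to 336 FPKM in cre_negative libraries. Smooth muscle and pericyte markers rose in 3 of 7 cases and fell in 1, with sums of 899 to 1324 FPKM in cre_positive and 466 to 605 FPKM in cre_negative libraries. Of 4 atrial markers 1 was called, Nppa, and rose; the sums were 2658 to 4654 FPKM in cre_positive and 510 to 715 FPKM in cre_negative libraries, nearly all of it Nppa. Another atrial marker, Myl7, stood apart at 19.6 FPKM in cre_positive 4 and 58.2 FPKM in cre_negative 1, against at most 0.73 FPKM in each other library, and Sln and Myl4 were also highest in those libraries. Of the 10 genes, 6 were called lower without cre_positive 4, where 1971 of 11688 tested genes were. Without cre_negative 1, 5 of the 10 were, against 1866 of 11688. An effect of atrial tissue on these calls was not tested. Of 5 tested red cell and 2 tested proliferation markers 0 were called; red cell sums were 1183 to 1589 FPKM in cre_positive and 944 to 2802 FPKM in cre_negative libraries, and proliferation sums were 2.64 to 10.6 FPKM in cre_positive and 4.06 to 9.11 FPKM in cre_negative libraries. Lymphocyte markers summed to 0.507 to 2.05 FPKM in cre_positive and 0.464 to 3.47 FPKM in cre_negative libraries, and each of the 6 stood at the lowest deposited value in some libraries. No marker of any list stood there in all 8.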

How the data were processed

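RNA of 8 ventricle lysates (stranded total RNA kit with ribosomal depletion, per the labels' protocols) was sequenced. The authors deposited 1 FPKM value per gene symbol and library, made with Bowtie2 2.2.6 and Cufflinks on mm10, per the submitters' processing notes; the labels do not state the annotation, filters or use of strand. The lowest value, 0.01, fills 32.6% to 39.0% of genes per library, and 6 cells of 3 genes outside the group hold a word and were treated as missing. Library sizes were estimated from 3664 genes with 1 GENCODE M21 transcript of 500 to 4000 bases, from the lowest cluster of FPKM times length, read as 1 fragment. At 1 FPKM a 2 kb transcript then rests on 8.93 to 44.8 fragments; a count of 0 allows 0.0670 to 0.336 FPKM (3 fragments). Both cover counting error only.

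log2(FPKM + 1) was fitted with limma 3.58.1 in R 4.3.3 (lmFit, eBayes with trend) over the 11688 genes whose mean reached 1 FPKM, without covariates and with Benjamini-Hochberg adjustment. The step was tested on simulated data. Exact permutation tests used all 70 assignments in Python 3.11.15. Of the other lists, the text names up to 4 called genes with the largest change. The members and lists were chosen with earlier results of these data known. The labels do not say that samples come from separate animals, so p-values measure the spread between these samples. Library names of cre_negative 1 and 2 differ only by a suffix and may mark 1 animal; their log2 values differed with an SD of 0.355, against 0.356 to 0.462 for the other 5 control pairs. The Rn45s split at 100 FPKM was found in the data. Alternatives covered the pseudocount, filter, scaling, Rn45s split, replicate block, variance trend, averaging of cre_negative 1 and 2, and leaving out each library.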

Additional observations from a re-analysis of the deposited data

Results flagged for a closer look

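In 28 groups of 4 libraries (10 genes and 4 pairs), 2 held a library whose gap to its nearest neighbour took up most of the group's range by Dixon's 95% limit, where chance flags about 1 group in 20. Polg2 stood at 0.847 FPKM in cre_positive 1, against 1.56 to 1.61 FPKM in the other cre_positive libraries. That library has the smallest estimated size, and without it the log2 change of Polg2 was -0.38 (limma adjusted p = 0.0495). Tfb1m minus Tfb2m was -1.68 on the log2 scale in cre_positive 2, against -1.52 to -1.49 in the other cre_positive libraries.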

How the results depend on the processing

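Under 18 alternatives, 158 of 180 values of the 10 genes kept their direction and their side of the threshold, 10 were no longer called, 3 were newly called and 10 changed sign, 9 of them called under neither setting. Tfam, Tfb1m and Tfb2m stayed called lower in all 18, with log2 changes of -0.70 to -0.33, -0.92 to -0.50 and -0.72 to -0.38. Fixed-sum scaling left 3 of the 10 genes called lower and 2 higher, 1010 genes of the whole table lower and 5470 higher (84.4% of calls higher, against 50.4% on the deposited scale), and 35 lower and 17 higher over the 6 lists. On that scale Gabpb1 changed sign to 0.26, Polg to 0.21 and Gabpa to 0.085. Nrf1 changed sign to -0.20 in the low Rn45s set, and Gabpb1 to 0.018 with the Rn45s split as a term, 0.012 in the high set and 0.028 in the low set. Its factors were 1.10 to 1.14 for cre_positive and 0.862 to 0.9435 for cre_negative libraries, which moves all genes in 1 direction by construction. Polg2 also lost its call with no filter on low values (adjusted p = 0.0907) and with cre_negative 1 and 2 averaged (adjusted p = 0.0583); the cause was not tested. Leaving out 1 library at a time gave 5 to 6 of the 10 genes lower and 0 higher, 1862 to 2317 genes lower and 1862 to 2335 higher, and 55 to 63 lower and 2 to 3 higher over the lists; Nrf1 then ran from -0.047 to 0.16 and Gabpb1 from -0.036 to 0.046. The pair differences then ran from -0.19 to -0.02 for Tfam minus Polrmt, 0.35 to 0.48 for Polg minus Polg2, -0.26 to -0.14 for Gabpa minus Gabpb1 and -0.22 to 0.022 for Tfb1m minus Tfb2m. None of the 44 alternatives for the pairs was called, though a pair can pass the adjustment only if other pairs reach the smallest p as well. With the sample number as a replicate block, 5 genes were lower, Polg2 not called (adjusted p = 0.0574), and 1899 genes were lower and 1963 higher; pair differences with 4 blocks cannot pass the threshold. Same-number libraries had correlated deviations of -0.16 to -0.08, and 0 of 4 cre_positive libraries matched their own number best. Those deviations were not adjusted for Rn45s. The same-number libraries 2, 3 and 4 lie in different Rn45s sets, so the check cannot decide on pairing.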
